A study of Mus musculus with 16 samples.

Results

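The clustered protocadherins are cell-surface adhesion proteins encoded in a row of neighbouring genes on mouse chromosome 18. DNA break ends in and around these genes were counted in 16 libraries of AB22 cells, a mouse malignant mesothelioma cell line. Members were chosen by name and position, as protein-coding genes of chromosome 18 in GENCODE M21 (build mm10) whose symbol starts with Pcdha, Pcdhb or Pcdhg. This gave 57 members of 32093 genes counted, 14 of the alpha family, 22 of the beta family and 21 of the gamma family. In this annotation 2 entries carry the symbol Pcdha11, ENSMUSG00000007440.10 and ENSMUSG00000102206.5, and both were kept.

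All cells carried a doxycycline-induced pTRIPZ hairpin, were held in G1 and were fixed after exposure to gamma rays from a caesium source. The hairpin was either a control, shCTRL, or one against HMGB1, shHMGB1, and each of the 2 lines received 0, 3, 5 or 10 Gy. Each of the 8 groups had 2 libraries, described in the series' design as biological replicates. Breaks were labelled by BLISS, in which free DNA ends are blunted and ligated to an adapter inside fixed cells, so that each sequenced molecule marks 1 end. The series title asks about protection of DNA by nucleosomes when cells are irradiated, and HMGB1 is a chromatin protein that binds nucleosomes and linker DNA.

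In vertebrates each neuron shows a small combination of these proteins on its surface, and matching combinations on neighbouring membranes bind one another, which helps a neuron tell its own branches from those of others. In the alpha and gamma clusters every member has its own promoter and a large variable exon for the extracellular domains. This exon is spliced to constant exons shared by the whole cluster, while each beta gene is a single variable exon. Promoter choice involves DNA methylation, CTCF and cohesin-made loops. A few members, the C-types at the ends of the alpha and gamma clusters, are expressed more uniformly than the rest in neurons.

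The locus spans chr18:36930184-37841873, 911.69 kb, with the alpha cluster at chr18:36930184-37187661 (257.478 kb), the beta cluster at chr18:37264938-37524479 (259.542 kb) and the gamma cluster at chr18:37661793-37841873 (180.081 kb). Libraries held 131430 to 1010888 ends on the main chromosomes (median 805996), and the smallest was shCTRL 3 Gy replicate 2. Levels are given as CPM, the usual scale of counts set to a common library size, here with TMM factors, which correct for differences in composition. The locus held 2675 ends in all, 27 to 260 per library, so that single members had few ends and their values carry wide counting error. The deposited files group neighbouring ends of a library into intervals, and these 2675 ends lay in 2103 intervals, which were counted as an alternative to the ends. Of the distinct positions with an end, 98.1% had ends in 1 library only, 42 positions were shared between libraries, and the most ends at 1 position of a library was 8.

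At 0 Gy the locus held 215.6 and 266.4 CPM in the shCTRL libraries and 191.8 and 242.5 CPM in the shHMGB1 libraries. At 3 Gy the values were 229.0 and 177.4 CPM in shCTRL against 284.4 and 255.5 CPM in shHMGB1. The 3 Gy libraries of the lines did not overlap, and those at 0 Gy did. The value of 177.4 CPM came from only 27 ends. How many genes separate the lines in this way was not counted at any dose, so a lack of overlap between pairs of libraries is a description only. The log2 difference between lines at 3 Gy was 0.36 ± 0.29 (edgeR adjusted p = 0.875). At 5 Gy the locus held 225.9 and 234.3 CPM in shCTRL and 218.7 and 236.9 CPM in shHMGB1. At 10 Gy it held 202.1 and 240.2 CPM in shCTRL and 254.2 and 259.9 CPM in shHMGB1, again without overlap. The log2 difference there was 0.22 ± 0.27 and did not pass the test. Over all doses the mean was 223.9 CPM ± 26.5 (SD, n = 8) in shCTRL and 243.0 CPM ± 28.1 (SD, n = 8) in shHMGB1, and the ranges of 177.4 to 266.4 and 191.8 to 284.4 CPM overlapped for most of their length.

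**Figure D1:**
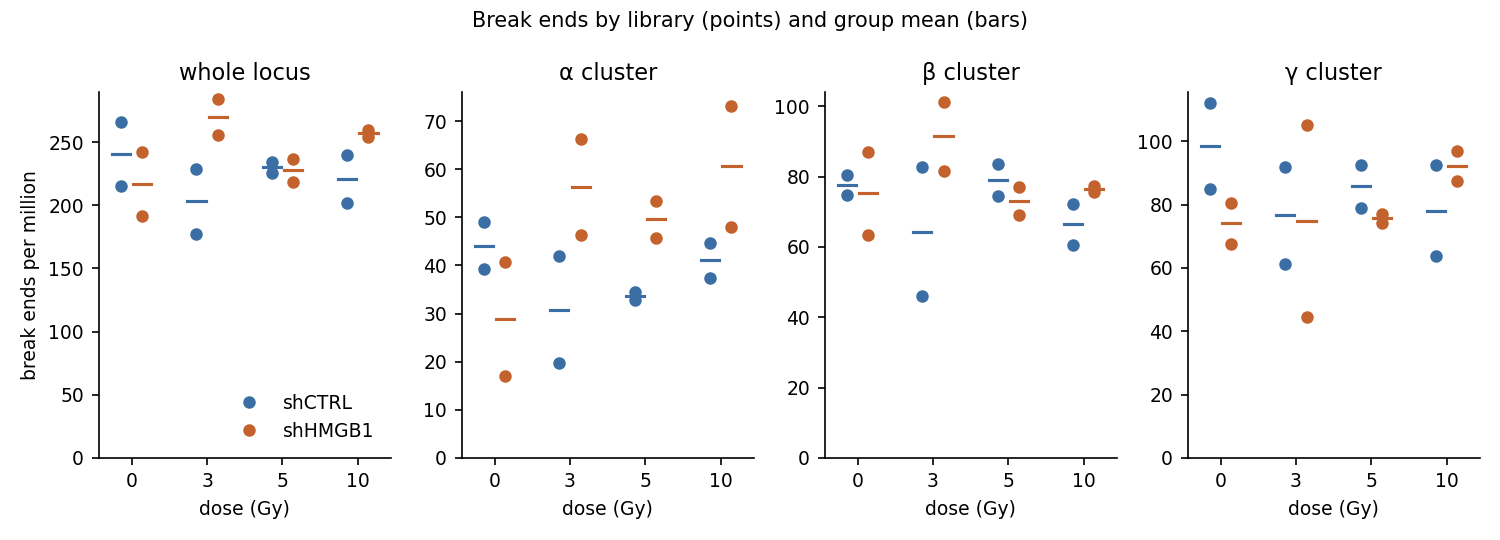
Break ends in CPM (vertical axis, from 0) by dose in Gy (horizontal axis) for the whole locus and its 3 clusters. Points are libraries, 2 per line and dose, and bars are their means. The alpha cluster of shHMGB1 lies lowest at 0 Gy, where its replicate 1 held 16.9 CPM, while the beta values of the lines overlap at 0, 3 and 5 Gy.

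With every end counted once, the locus did not differ between the lines past the test (log2 shHMGB1 over shCTRL 0.10 ± 0.14 SE, edgeR adjusted p = 0.864). The 95% interval of that difference, normal from its standard error, ran from -0.17 to 0.38. The alpha cluster had a log2 difference of 0.28 ± 0.20 (edgeR adjusted p = 0.674), the beta cluster 0.10 ± 0.16 (edgeR adjusted p = 0.890) and the gamma cluster -0.06 ± 0.16 (edgeR adjusted p = 0.946). Of the 12818 genes and clusters tested together, 0.218% passed an adjusted p of 0.05 in this comparison, 7 higher and 21 lower in shHMGB1. The alpha value was 0.54 without shCTRL 3 Gy replicate 1, 0.0935 without shHMGB1 0 Gy replicate 2 and 0.0699 in intervals, none of them called. The signs for the beta and gamma clusters turned with every library thinned to the smallest, to -0.35 and 0.16.

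Irradiated libraries of all doses together held 234.9 CPM ± 28.1 (SD, n = 12) at the locus and unirradiated ones 229.1 CPM ± 32.4 (SD, n = 4). The log2 difference of irradiated against 0 Gy within lines was 0.04 ± 0.16 for the locus (edgeR adjusted p = 0.979), and its sign turned to -0.01 with library totals in place of TMM scaling. It was 0.32 ± 0.24 for the alpha cluster (edgeR adjusted p = 0.795), but 0.10 without shHMGB1 0 Gy replicate 1, 0.73 without its replicate 2 and 0.16 without shCTRL 3 Gy replicate 1, none of them called. It was -0.01 ± 0.19 for the beta cluster (edgeR adjusted p = 0.992) and -0.11 ± 0.19 for the gamma cluster (edgeR adjusted p = 0.936). Here 0.0234% of all genes and clusters tested were called. A slope over dose gave 0.0045 ± 0.019 log2 units per Gy for the locus (edgeR adjusted p = 0.998), in a comparison with 0.0156% of genes and clusters called. BLISS counts scaled to the library total cannot show a change in the number of breaks per cell, only a change in the share that falls in these genes.

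The alpha cluster was the one region of the 4 whose response to irradiation differed between the lines before adjustment, and that difference did not pass the test over all genes. In shCTRL it held 39.2 and 49.1 CPM at 0 Gy, 41.9 and 19.7 at 3 Gy, 32.9 and 34.5 at 5 Gy, and 37.4 and 44.6 at 10 Gy. In shHMGB1 it held 16.9 and 40.8 CPM at 0 Gy, 46.4 and 66.2 at 3 Gy, 45.7 and 53.4 at 5 Gy, and 47.9 and 73.2 at 10 Gy. All 6 irradiated shHMGB1 libraries thus lay above both unirradiated ones, while the irradiated and unirradiated shCTRL libraries overlapped. How many genes separate in this way was not counted, so the separation describes these libraries and cannot be called particular to this cluster. The difference of the responses was 1.14 ± 0.47 on the log2 scale (edgeR adjusted p = 0.943, with an unadjusted value of 0.0187). In this comparison 0% of all genes and clusters were called, and 5.2% had an unadjusted p under 0.05.

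Against the unirradiated shHMGB1 libraries, which the 3 doses share, the alpha cluster changed by 0.91 ± 0.38 at 3 Gy, 0.74 ± 0.38 at 5 Gy and 1.02 ± 0.37 at 10 Gy on the log2 scale, with edgeR adjusted p of 0.758, 0.946 and 0.999. The values rest on few ends, 12 in shHMGB1 0 Gy replicate 1 and 37 in its replicate 2. Without replicate 1 the difference of the responses was 0.67, and without replicate 2 it was 1.92. The changes at 3, 5 and 10 Gy were 0.46, 0.28 and 0.58 without replicate 1, and 1.71, 1.53 and 1.82 without replicate 2, and none was called. The corresponding differences of response were 0.33 ± 0.33 for the locus (edgeR adjusted p = 0.986), 0.18 ± 0.37 for the beta cluster (edgeR adjusted p = 0.994) and 0.46 ± 0.38 for the gamma cluster (edgeR adjusted p = 0.986). Over 10 single-dose comparisons of lines or of doses, 0 of 40 tests of the 4 regions passed, 2 had an unadjusted edgeR p under 0.05, and the smallest edgeR adjusted p was 0.75. In each of those comparisons at most 0.0156% of all genes and clusters were called, with 0.0078% in 3 of them.

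**Figure D2:**
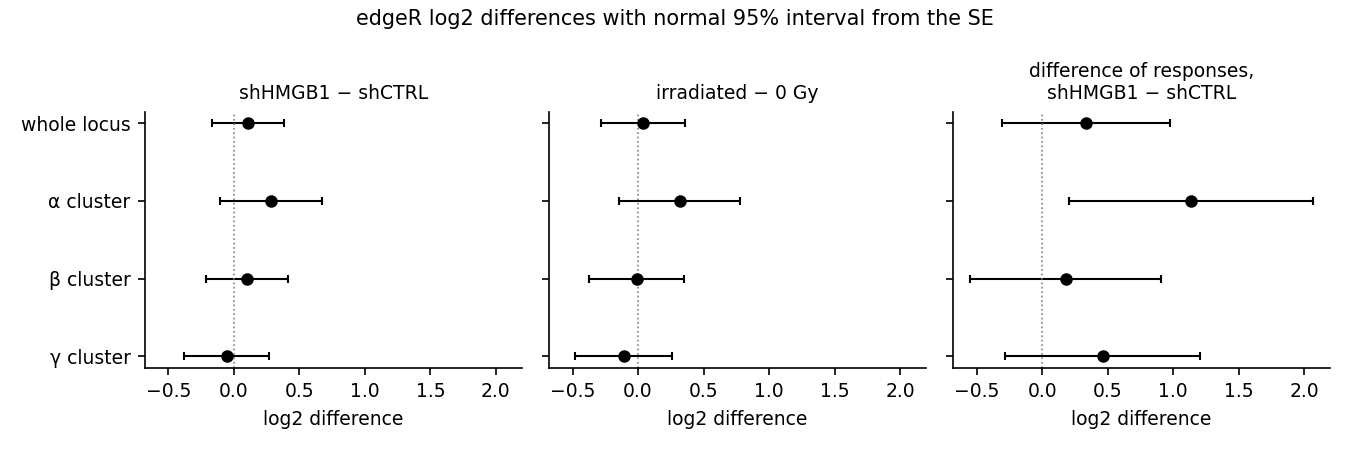
Log2 differences of break ends (horizontal axis) for the locus and each cluster (vertical axis), as points with normal 95% intervals from edgeR's standard errors as bars. The bars include 0 in the comparison of lines and of irradiated against 0 Gy for all 4 regions, and only the alpha cluster's bar in the difference of responses, from 0.21 to 2.07, lies off 0.

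Counted member by member over whole gene bodies, the same ends enter many genes, since alpha and gamma members all run to the shared constant exons. The alpha gene bodies summed to 5418 ends against 508 distinct alpha ends (10.7 times), and the gamma bodies to 13318 against 915 (14.6 times). The filter on low counts left 34 of the 57 members, 13 alpha, all 21 gamma and no beta gene. Of the 34 tested, 0 were called between the lines, where 0.218% of all genes were, and 0 between irradiated and 0 Gy, where 0.0233% were. No tested member had an unadjusted edgeR p under 0.05 in either comparison, beside 9.69% of all genes tested between lines and 7.18% for irradiation. DESeq2 gave an adjusted p to 16 of the 57 members between the lines and called 0 of them, beside 1.96% of the 2191 genes it adjusted. For irradiation it adjusted all 57 members and called 0, beside 0% of 30312 genes. Pcdhac2 had an unadjusted DESeq2 p under 0.05 between the lines (log2 1.45 ± 0.64) and was given no adjusted p.

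Without the filter all 57 members entered edgeR and again 0 were called, beside 0.0825% of all genes between lines and 0.0132% for irradiation. Unadjusted edgeR p fell under 0.05 for 3 of the 57 members in each comparison, beside 7.02% of all genes between lines and 5.39% for irradiation. The members thus did not exceed the share of all genes. These were Pcdhb17, Pcdhac2 and Pcdhac1 between lines, and Pcdhb19, Pcdhb14 and Pcdhb17 for irradiation. Pcdhb17 had log2 2.03 ± 0.80 between lines (edgeR adjusted p = 0.585), and Pcdhb19 had -2.28 ± 0.93 for irradiation (edgeR adjusted p = 0.820). The gene body of the C-type member Pcdhac1, which starts late in the alpha cluster, had the smallest p of the filtered members, with 0.62 ± 0.32 between lines (edgeR adjusted p = 0.527) and 0.66 ± 0.39 for irradiation (edgeR adjusted p = 0.758). Without shCTRL 3 Gy replicate 1 the value between lines was 2.16 and that for irradiation turned to -0.36. Without shHMGB1 0 Gy replicate 2 these were 0.17 and 1.55, and no member was called in either case.

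The nested alpha bodies lay between 0.25 and 0.62 in the comparison of lines, with a median of 0.30, and those of Pcdha9 and Pcdha11 (ENSMUSG00000007440.10) were next to Pcdhac1 by p, at 0.35 ± 0.22 (edgeR adjusted p = 0.639) and 0.34 ± 0.23 (edgeR adjusted p = 0.656). Without shCTRL 3 Gy replicate 1 these were 0.87 and 0.85, and in intervals 0.105 and 0.0735. The gamma bodies had a median of -0.05 (range -0.20 to 0.01), and the lowest p below 0 belonged to Pcdhga11, Pcdhgc3 and Pcdhgc5, at -0.14 ± 0.20, -0.15 ± 0.26 and -0.20 ± 0.38. All genes tested had a median of 0.03, with 54.0% above 0. For irradiation the alpha median was 0.29 and the gamma median -0.01, beside -0.01 for all genes. Pcdha12 had 0.45 ± 0.29 and Pcdhgc5 0.72 ± 0.47, the members that followed Pcdhac1, while Pcdhga1, Pcdhga4 and Pcdhga2 lay at -0.11, -0.10 and -0.10. Because the bodies of a cluster share most of their ends, these medians repeat the cluster values and are not separate evidence.

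The ends were spread unevenly along the locus. Mean density over the 16 libraries was 0.167 CPM per kb ± 0.056 (SD) in the alpha cluster, 0.291 ± 0.047 in the beta cluster and 0.455 ± 0.096 in the gamma cluster. The beta cluster was denser than the alpha cluster in 16 of 16 libraries, and the gamma cluster was denser than the beta cluster in 15 of 16, the exception being shHMGB1 3 Gy replicate 2. Summed over libraries, gamma over beta was 1.52 and beta over alpha 1.70, and counting intervals instead gave 1.53 and 1.66. The stretches between clusters held 0.171 CPM per kb ± 0.102 (alpha to beta) and 0.143 ± 0.053 (beta to gamma). These contrasts are descriptions of the same libraries, and mapping and base composition, which differ along the locus, were not corrected for.

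**Figure D3:**
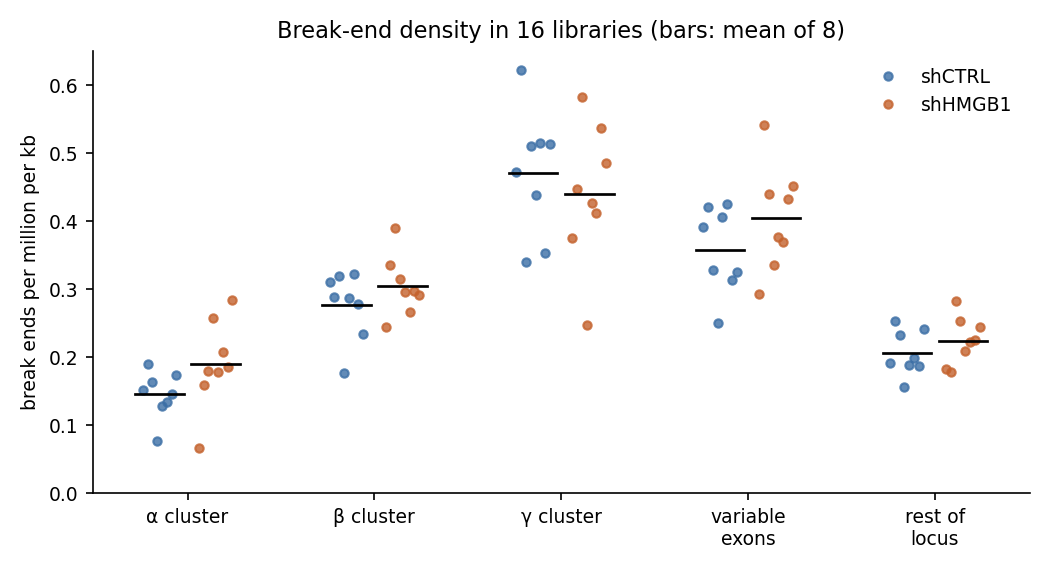
Break-end density in CPM per kb (vertical axis, from 0) in each cluster, in all variable exons and in the rest of the locus. Points are libraries, 8 per line, and bars are means. The clusters rise from alpha to gamma in both lines, and the variable exons lie above the rest of the locus.

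In bins of 25 kb the profile had its highest value 875 to 900 kb from the start of Pcdha1, in a bin that includes the C-type exons of the gamma cluster. That bin held 208 ends, at 0.870 CPM per kb ± 0.541 for shCTRL and 0.710 ± 0.266 for shHMGB1 (mean ± SD of 8 libraries), and no library was under 0.369. Of these ends, 26 lay in the variable exon of Pcdhgc3, 11 in that of Pcdhgc4 and 19 in that of Pcdhgc5. Most ends of the bin thus lay outside the C-type exons. Inside the beta cluster the means of the lines differed in a pair of bins, picked out after their values were seen and so not tested, and libraries of the lines overlapped in both. At 500 to 525 kb shCTRL held 0.612 ± 0.223 and shHMGB1 0.358 ± 0.139, and at 550 to 575 kb shCTRL held 0.258 ± 0.216 and shHMGB1 0.576 ± 0.237. The differences ran in opposite directions within 1 cluster, and these are 2 of the 37 bins examined.

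**Figure D4:**
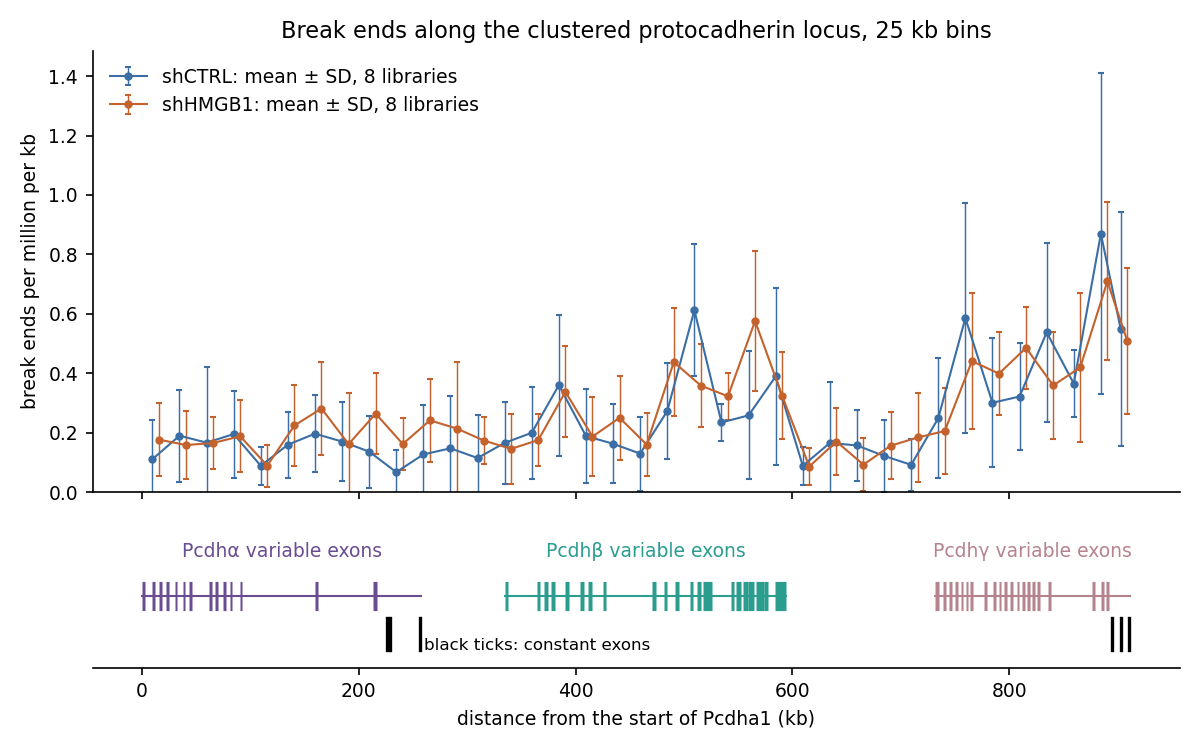
Break ends in CPM per kb (vertical axis) in bins of 25 kb along the locus (horizontal axis, kb from the start of Pcdha1), as mean ± SD of 8 libraries per line, above the positions of variable exons (coloured blocks) and constant exons (black ticks). Both lines peak at 875 to 900 kb, and the low stretch between the beta and gamma clusters is shared.

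The variable exons together, 183.315 kb, held 804 ends, at 0.381 CPM per kb ± 0.072 (SD, n = 16) against 0.215 ± 0.034 in the rest of the locus, outside the exons of any gene. The ratio of these densities was above 1 in 16 of 16 libraries, from 1.32 to 3.03, with a geometric mean of 1.76 (exact sign-flip test over libraries, two-sided p = 3.05e-05, the smallest that 16 libraries allow; it describes these libraries, some of which may share a culture). It was 1.73 in shCTRL and 1.79 in shHMGB1. Within clusters the beta exons stood out most from their surroundings. They were denser than the rest of their cluster in 15 of 16 libraries, with a ratio of summed densities of 1.82, while the ratio was 1.17 for alpha (8 of 16 libraries) and 1.10 for gamma (12 of 16 libraries). The first ratio therefore also contains the difference between dense clusters, rich in exon sequence, and the sparse alpha cluster and gaps.

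Summed over all variable exons, the lines held 65.6 CPM ± 11.5 (shCTRL, lowest 46.0, median 66.0, highest 78.1) and 74.2 CPM ± 14.2 (shHMGB1, lowest 53.6, median 74.2, highest 99.2; SD, n = 8 each). The lines overlapped over most of this range. The mean log2 difference within doses was 0.17 (exact permutation test within doses, two-sided p = 0.245, adjusted over 2 comparisons p = 0.408). It was 0.29 with 500 bases added on each side of the exons and 0.10 with distinct positions, neither past the threshold. Irradiated against 0 Gy within lines was -0.13 (exact permutation test, two-sided p = 0.408, adjusted p = 0.408). Both rested on the 0 Gy pair of shHMGB1, whose libraries held 53.6 and 99.2 CPM. Without its replicate 1 the differences were 0.28 and -0.35, each with an exact permutation adjusted p of 0.041, and without its replicate 2 they were 0.0639 and 0.0864.

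The gamma constant exons, which the gamma members share and which include the code for the cytoplasmic end of the protein, were dense in ends. They were picked out after their values were seen. Their 2119 bases held 37 ends in 30 intervals, 17.5 ends per kb (95% exact Poisson interval 12.3 to 24.1, which covers counting error only). Of the 37, 36 lay in the third exon at chr18:37839903-37841873, which makes up 1971 of the 2119 bases. Its coding and untranslated parts were not counted apart. The shCTRL libraries held 1 and 1 (0 Gy), 4 and 0 (3 Gy), 1 and 4 (5 Gy) and 3 and 4 ends (10 Gy), and the shHMGB1 libraries 3 and 4, 2 and 1, 3 and 4, and 0 and 2. No library held more than 4, and the lines held 18 and 19 in all. The pairs overlapped at 3 and 5 Gy, while shHMGB1 was higher at 0 Gy and shCTRL at 10 Gy, differences that were not tested. Relative to the gamma variable exons the constant exons were 3.37 times as dense. They were higher in 14 of 16 libraries, which are all those with any end in them, so that count adds little.

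The alpha constant exons, which the alpha members share, held 4 ends in 2864 bases, 1.40 per kb (95% exact Poisson interval 0.381 to 3.58), in 3 libraries. In CPM per kb the gamma constant exons had 1.48 ± 0.89 and the alpha ones 0.101 ± 0.247 (SD, n = 16). The gamma value was the higher in 14 of 16 libraries, again all those with any end in the gamma constant exons. The remaining alpha sequence outside exons held 0.168 CPM per kb ± 0.050, so the alpha constant exons did not stand above their own cluster.

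Single variable exons ranged from 0.384 to 12.4 ends per kb over the 16 libraries together. The family medians were 2.21 per kb for alpha, 3.77 for beta and 4.60 for gamma, and 55 members had an end in shCTRL and 56 in shHMGB1. Alpha exons ran from 0.405 to 4.44 per kb, beta exons from 1.55 to 12.4 and gamma exons from 0.384 to 10.1. The highest were Pcdhb5 (12.4 per kb), Pcdhgc3 (10.1), Pcdhb11 (9.96), Pcdhga12 (9.79) and Pcdhb17 (9.44), whose 95% exact Poisson intervals overlap one another. The lowest were Pcdhgb1 (0.384 per kb, 1 end), Pcdha3 (0.405, 1 end) and Pcdhac1 (1.17, 3 ends).

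**Figure D5:**
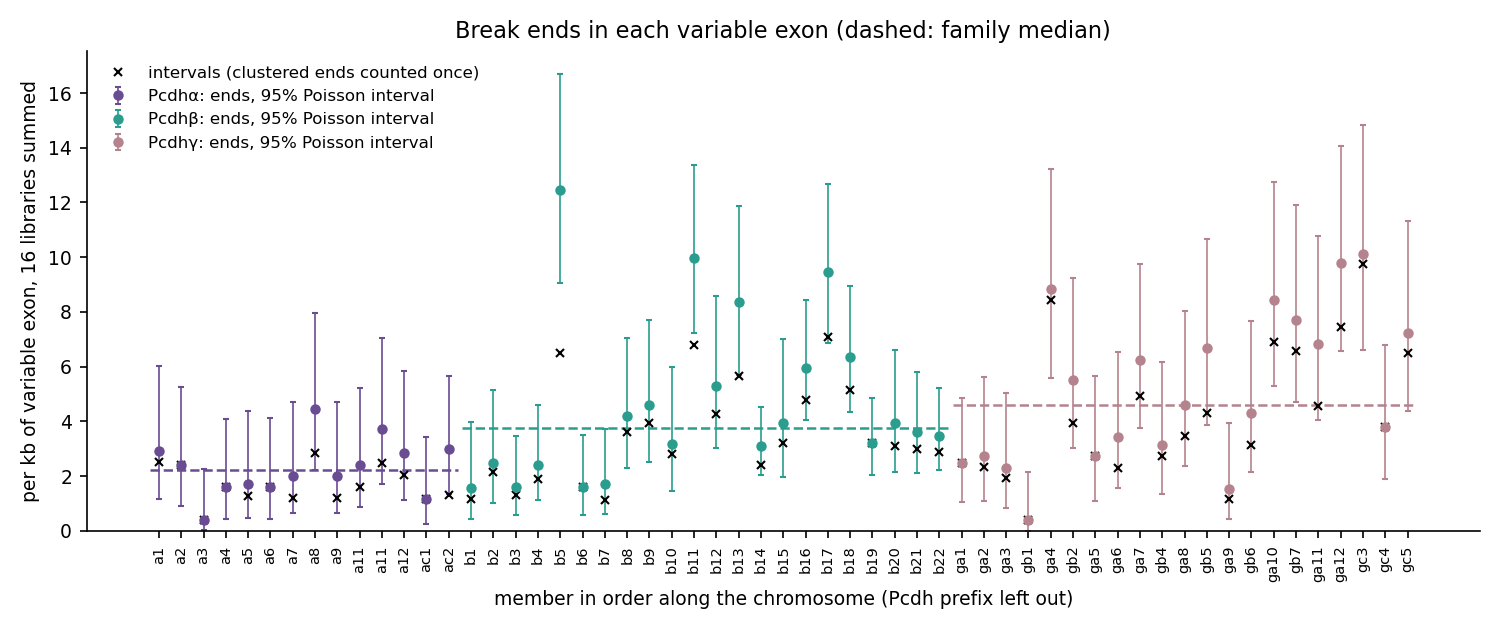
Break ends per kb of variable exon, 16 libraries summed (vertical axis, from 0), for each member in chromosome order (horizontal axis). Circles are ends with 95% Poisson intervals, crosses are intervals per kb, and dashed lines are family medians of 2.21, 3.77 and 4.60. Pcdhb5 has the tallest circle at 12.4 and falls to 6.51 as intervals, while Pcdhgc3 stays at 9.74.

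Pcdhb5 (chr18:37320381-37323915) owed its rank to a few places in a few libraries. Of its 44 ends, 15 were in shCTRL 3 Gy replicate 1, in 5 intervals, 8 were in shHMGB1 5 Gy replicate 2, and 7 of the 16 libraries had none. Counted as intervals it held 6.51 per kb. Pcdhb11 (chr18:37421418-37425836) had 44 ends in 12 libraries, 11 of them in shHMGB1 5 Gy replicate 1, and fell to 6.79 intervals per kb. Both of these values are above the beta median of 3.77 per kb, but that median counts ends, not intervals. The beta exons together held 432 ends and 331 intervals.

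Pcdhgc3 (chr18:37806410-37808977), a C-type member that many tissues outside the brain also express, held 26 ends. Its ends were 2 and 1, 2 and 0, 2 and 2, and 0 and 2 in shCTRL at 0, 3, 5 and 10 Gy, and 0 and 2, 0 and 1, 6 and 1, and 4 and 1 in shHMGB1. They fell in 12 of 16 libraries with no line standing higher, and made 25 intervals, 9.74 per kb and the highest value of all members by that count. The lines held 2.39 CPM ± 1.73 and 2.10 CPM ± 2.24 (shCTRL and shHMGB1, SD, n = 8 each). Of the other C-type members Pcdhgc5 had 7.25 ends per kb and Pcdhgc4 3.79, while in the alpha cluster Pcdhac2 had 2.97 and Pcdhac1 1.17. Of the 9 ends of Pcdhac2, 5 lay in 1 interval of shHMGB1 10 Gy replicate 2.

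Pcdhb17 (chr18:37484795-37489454) was the dense member with the widest gap between lines, 8 ends in shCTRL and 36 in shHMGB1. In shCTRL it held 3 and 0, 2 and 0, 0 and 0, and 1 and 2 ends at 0, 3, 5 and 10 Gy. In shHMGB1 it held 3 and 13, 2 and 3, 3 and 3, and 9 and 0. The lines overlapped, since shHMGB1 10 Gy replicate 2 had none, and 13 and 9 of the 36 ends came from 2 libraries. In CPM this was 1.52 ± 2.25 against 5.21 ± 4.43 (SD, n = 8 each), and in intervals 6 against 27. Its neighbours Pcdhb16 and Pcdhb18, named after their values were seen, held 7 and 7 ends in shCTRL and 24 and 25 in shHMGB1. None of the 3 was called. The shHMGB1 libraries hold more ends in all, which affects the counts of ends but is scaled out in CPM.

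Of the first member of each cluster, Pcdha1 had 2.93 ends per kb, above the alpha median of 2.21. Pcdhb1 had 1.55, below the beta median of 3.77, and Pcdhga1 had 2.46, below the gamma median of 4.60. Pcdhga12 (chr18:37765580-37768540) held 29 ends in 11 libraries and 22 intervals, 8 ends in shCTRL and 21 in shHMGB1, or 2.42 CPM ± 2.87 and 3.04 CPM ± 2.46 (SD, n = 8 each), which overlap. Over the 57 members the densities of the lines correlated with Pearson's r = 0.485 and Spearman's rho = 0.481, as a description across exons that share libraries and are not independent.

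The exons differ in sequence as well as in ends. Their coding part was 2316 to 2562 bases in every member, so the families differ little there. Whole exons, with their untranslated parts, had median lengths of 2479.5 bases for alpha, 3714 for beta and 2608 for gamma. Ends per kb and G and C content were both taken over whole exons. Median G and C content was 53.4% for alpha, 46.0% for beta and 52.6% for gamma, and that of the coding part alone was not computed. Density and G and C content had Pearson's r = -0.07 and Spearman's rho = -0.08 over the 57 members, which mixes families of unlike content. Within families r was 0.50 for alpha (rho 0.69, 14 members), -0.06 for beta (rho -0.16, 22 members) and 0.39 for gamma (rho 0.37, 21 members). These are descriptions across exons that share libraries. Exons were also compared by the share of 36-base words that each has in common with another member's exon. Such words can hamper placing short reads, but the rest of the genome was not compared. The exons of Pcdhb21 and Pcdhb22 overlap, so that some of their shared words are the same bases. The share had medians of 19.0% in alpha, 8.86% in beta and 2.44% in gamma, up to 32.8% in a single exon. Families thus ranked by this share in the reverse order of their densities, and over members density and share had Pearson's r = -0.277 and Spearman's rho = -0.235. Within families the signs differed, with r = 0.256 for alpha (rho 0.433), 0.117 for beta (rho 0.182) and -0.316 for gamma (rho -0.384). The part of mapping in the low alpha density was not tested.

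The locus as a whole was not an outlier in the genome. Among 2886 windows of its length, 53.1% held fewer ends, and the locus held 234 CPM without TMM scaling beside a window median of 227 (quartiles 182 and 303). Its density was 0.682 ± 0.087 (SD, n = 16) of the mean density of the genome, below 1 in 16 of 16 libraries. The same ratio was 0.996 with each distinct position counted once and 1.02 with intervals. The 1 Mb before the locus held 0.305 CPM per kb ± 0.037, above the locus in 12 of 16 libraries. The 1 Mb after it held 0.699 ± 0.171, of which 63.8% of ends fell in 11 bases at chr18:37953118-37953128 in Hdac3, a histone deacetylase gene 111 kb past the locus, with 144 to 463 ends there per library. Without them it held 0.237 ± 0.022 CPM per kb, above the locus in 5 of 16 libraries.

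Other genes were read from lists for comparison, and none of their members passed the test in either comparison. The 12 non-clustered protocadherins, adhesion genes scattered over the genome, had 0.230 CPM per kb ± 0.038 (SD, n = 16), beside 0.306 ± 0.049 over the gene bodies of the members. Of 8 tested, 7 lay above 0 between lines, with a median log2 of 0.21, beside 54.0% and 0.03 for all genes tested. Pcdh15 (3810 ends, 0.19 ± 0.15, edgeR adjusted p = 0.708) and Pcdh9 (2548 ends, 0.34 ± 0.15, edgeR adjusted p = 0.425) had the most ends.

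The 16 regulators of the clusters, among them CTCF, cohesin subunits and loaders, and DNA methyltransferases, had 0.422 CPM per kb ± 0.028 and a median of -0.08 over 15 tested. Stag1, a cohesin subunit, held 1445 ends and Nipbl, the cohesin loader, 977. The 10 signalling partners had 0.465 CPM per kb ± 0.057 and a median of 0.01 over 10 tested, with 1775 ends in Ptk2, the focal adhesion kinase that protocadherins inhibit, and 774 in Abi1, a part of the WAVE actin-regulating complex. The 64 neighbours within 1 Mb had 0.471 ± 0.069 and a median of -0.08 over 25 tested. Hdac3, with the dense place named above, held 4790 of their 12162 ends, and without it the list had 0.276 CPM per kb ± 0.0212. The second by ends was Gm42416 with 2610, a long gene model that spans most of the locus and so repeats its value (log2 0.10 ± 0.14 between lines).

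The 1093 olfactory receptor genes, another large family of tandem genes from which single cells choose, had 0.257 CPM per kb ± 0.054 over gene bodies. Only 10 of them passed the filter on low counts, which a gene can pass through 1 line alone, so these 10 do not stand for the family. Between lines 9 of the 10 lay above 0, with a median of 0.48, beside 54.0% and 0.03 for all genes tested. Neuronal genes, 8 in number, had 0.209 CPM per kb ± 0.043, led by Syt1 (1240 ends) and Rbfox3 (793 ends). They lay above 0 in 7 of 7 tested (median 0.33), again beside 54.0% of all genes. The 8 mesothelial genes had 0.387 ± 0.079. Of their 533 ends, 244 lay in Msln (4.08 CPM per kb), the mesothelin gene, and 133 in Wt1. Apart from Msln, the genes of this list ran from 0.0340 (Krt18) to 0.537 CPM per kb (Krt19). The list value thus leans on Msln, and it was not computed without that gene. Break ends are not transcripts, so these markers do not check the cell type, and HMGB1 silencing could not be checked from these counts.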

How the data were processed

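In BLISS, per the labels' protocols, adapters were ligated to free ends in fixed cells, and the DNA was sonicated, transcribed in vitro and sequenced as small RNA libraries. Build mm10 and the tools BWA 0.7.5-r404, Trimmomatic 0.32, bedtools, SAMtools and UMI-tools come from the submitters' processing notes. Their order and settings are not given in the sources used here. The deposited files give, for each interval, the other values used, which are the end positions of single molecules, and the authors' count of them after duplicates were removed by molecular identifiers. These counts are raw and without strand.

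Each end was placed at its own position, given 1-based. Genes were protein-coding and long noncoding entries of GENCODE M21, and an end counted for every gene that holds it. Library sizes were the ends on main chromosomes. A variable exon is the exon with the most coding bases of a member, and constant exons are those shared within a cluster. Genes and clusters were compared by the quasi-likelihood test of edgeR 4.0.16 in R 4.3.3, fitted to all 8 groups after filterByExpr and TMM, with Benjamini-Hochberg adjustment over all features. One table held gene bodies, and another held the locus and 3 clusters, each end once, in place of the members. Sums over variable exons were compared as log2(CPM + 1) by exact permutation within doses or within lines (scipy 1.17.1), and the density ratio by exact sign flips. The edgeR script was tested on simulated counts. Poisson intervals cover counting error only, and the normal intervals come from edgeR's standard errors.

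The members and lists were chosen with earlier results of these data known. Members named are those past the test, the 3 of smallest p in each direction, the 5 with most and 3 with fewest ends per kb, the C-types and the first of each cluster, and of each other list those past the test and the 2 with most ends. Alternatives were DESeq2 1.42.0, other scaling, no filter, distinct positions, at most 3 ends per position, thinning, blocks, other pseudocounts and exon borders, and leaving out each library. Counting intervals was added after the data were seen. RNA-seq and ATAC-seq named in the design were not analysed here.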

Additional observations from a re-analysis of the deposited data

Results flagged for a closer look

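One result stood apart among 14 groups of 8 libraries examined. The ratio of variable exon density to that of the rest of the locus was 3.03 in shHMGB1 0 Gy replicate 2, and the gap to the next of the 8 shHMGB1 libraries was 0.651 of the group's whole range. This library held 99.2 CPM in variable exons, the most of all 16, and 0.178 CPM per kb in the rest of the locus. Of its ends, 13 lay in Pcdhb17. Chance alone marks about 1 in 20 such groups.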

How the results depend on the processing

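No setting called a member, the locus or a cluster in the comparisons of lines or of irradiation, the locus or a cluster in the difference of responses, the locus at single doses, or the alpha cluster's 3 doses in shHMGB1. The other single-dose comparisons of clusters were not run under the alternatives. The ratio of variable exon density to the rest of the locus kept its direction and its side of the threshold in all 20 settings tried. The log2 difference between lines at the locus stayed above 0 in all 28 settings (0.03 to 0.20), and that of the alpha cluster in all 26 (0.07 to 0.54). Locus density over the genome, 0.682, was 0.996 with distinct positions, 0.918 with at most 3 ends per position and 1.02 with intervals, so that it depends on how ends at 1 place are counted. For irradiation, the locus turned to -0.012 without TMM and the beta cluster to 0.010 without a filter, and the gamma cluster turned to 0.155 with thinning and 0.0192 with intervals. Between lines, thinning turned the beta cluster to -0.35 and the gamma cluster to 0.16, and the beta difference of responses to -0.11. The gene bodies of Pcdhga1, Pcdhga4 and Pcdhga2 for irradiation turned to 0.156, 0.146 and 0.135 with thinning and to 0.0184, 0.0464 and 0.0347 with intervals. The cause was not tested, other than that thinning leaves fewer ends.

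Leaving out each library in turn gave these ranges. Variable exon sums ranged from 0.0639 to 0.28 between lines and from -0.35 to 0.0864 for irradiation, with 2 values past the threshold, both without shHMGB1 0 Gy replicate 1. The alpha cluster ranged from 0.0935 to 0.54 between lines, from 0.10 to 0.73 for irradiation and from 0.67 to 1.92 for the difference of responses. In shHMGB1 its range was 0.46 to 1.71 at 3 Gy, 0.28 to 1.53 at 5 Gy and 0.58 to 1.82 at 10 Gy. The locus ranged from 0.0695 to 0.20 between lines, from 0.15 to 0.50 for the difference of responses, from -0.0368 to 0.13 for irradiation and from -0.00074 to 0.014 per Gy. The beta cluster ranged from 0.0462 to 0.29 between lines, from -0.13 to 0.12 for irradiation and from -0.0224 to 0.43 for the difference of responses. The gamma cluster ranged from -0.24 to 0.0688 between lines and from -0.23 to 0.0130 for irradiation. Among gene bodies the ranges between lines were 0.17 to 2.16 for Pcdhac1, 0.18 to 0.87 for Pcdha9 and -0.48 to 0.0281 for Pcdhga11, and for irradiation -0.36 to 1.55 for Pcdhac1, 0.14 to 0.90 for Pcdha12, -0.24 to 0.0046 for Pcdhga1, -0.23 to 0.0403 for Pcdhga4 and -0.22 to 0.0360 for Pcdhga2.

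Replicate numbers paired the libraries only weakly gene by gene, but in shCTRL they went with a shift in scaling. There the TMM factors were 0.934 to 0.951 in replicate 1 and 1.05 to 1.16 in replicate 2. The gamma cluster held 61.2 to 84.9 CPM in the former and 92.0 to 112.2 CPM in the latter. Deviations of same-numbered libraries correlated between 0.025 and 0.061 within lines and between -0.091 and 0.030 across lines. With the replicate number as a block, the locus differed by 0.10 between lines and by 0.05 for irradiation (edgeR adjusted p = 0.860 and 0.974), and 0 members were called in both. A block within each line gave 0.10 ± 0.12 between lines, beside 0.10 ± 0.14 without a block (edgeR adjusted p = 0.812 and 0.864). The depth limits single members, most of which had under 30 ends in all 16 libraries together.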
